A study of Rattus norvegicus with 9 samples.

Results

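Matrix-degrading proteases, lysosomal cathepsins and the protease inhibitors that act on them were followed across 9 arrays of cultured rat ureteric bud. The members were every probe set whose gene symbol in the platform's probe table named a matrix metalloprotease (Mmp), a tissue inhibitor of metalloproteases (Timp), an Adam or Adamts protease, a serpin, a cathepsin (Cts), or one of Plau, Plat, Plaur, Cst3, Cstb, Spint1, Spint2, St14 and Hpn. This gave 106 probe sets for 85 of the 10411 genes with a symbol on the array. Spint1 was not analysed here.

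Ureteric buds, the epithelial outgrowths that branch to form the collecting ducts of the kidney, were taken from Sprague-Dawley rats at embryonic day 13 and kept for 4 days in gels made up of type 1 collagen (50%) and Matrigel low in growth factors (50%). Every culture, in all 3 media, received FGF1 at 250 ng/ml and GDNF at 125 ng/ml. To these were added, in HRG, human recombinant heregulin alpha at 500 ng/ml, which acts through ErbB receptors. PTN cultures had pleiotrophin, which binds heparin, purified from BSN-CM and used at about 3 µg/ml. BSN cultures had BSN-CM itself, conditioned medium of a cell line from metanephric mesenchyme. Each sample pooled the RNA of 3 buds, and there were 3 samples per medium, called biological replicates by the series and here arrays 1 to 3 of each medium. The series title counts PTN as branching whereas the sample descriptions call PTN buds non-branching, so media are named here and not growth forms. No medium held FGF1 and GDNF alone, so a rise in one medium and a fall in the other cannot be told apart.

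A branching epithelium has to open the matrix around it, and metalloproteases do this by cutting collagens, laminins and proteoglycans, with Timp proteins as their inhibitors. Plasminogen activators generate plasmin, another matrix protease, and are held in check by serpins, which trap serine proteases by a suicide mechanism. Cathepsins are proteases mainly of lysosomes, where most are cysteine or aspartic proteases, and cystatins inhibit the cysteine type. All of these are controlled as proteins as well, by proenzyme cleavage and inhibitors, which array signals do not record.

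A probe set was tested when its signal, the linear intensity deposited for each array, exceeded the 40th percentile of all probe sets on 3 or more of the 9 arrays. That percentile ran from 580.1 to 788.2 over the arrays. It is a rule on low values and not a detection call. Of the 106 member probe sets 51 passed, for 45 genes, a share of 48.1% against 63.7% of all 15866 probe sets. Members that met the filter through 1 medium alone were bound to look different between media, so counts over these 51 probe sets describe the tested probe sets and not the family. Ctss and Adam10 passed with 3 arrays above the percentile, just inside the filter, and Mmp12 and Serpini1 missed with 2.

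Some sets of neighbouring genes were untested together, while others held both tested and untested genes. The 40 member genes with no tested probe set include all 6 of the neighbouring Mmp genes Mmp13, Mmp12, Mmp3, Mmp10, Mmp8 and Mmp7, most of which encode collagenases, stromelysins or matrilysin. Of 10 neighbouring Serpina genes, most of which encode plasma inhibitors made by the liver, only Serpina4 was tested, and none of Serpina10, Serpina6, Serpina1, Serpina11, Serpina5, Serpina3m, Serpina3c, Serpina3l and Serpina3n was. None of the 4 neighbouring cathepsins Ctsr, Ctsq, Ctsql2 and Ctsj was tested either, nor any of Serpinb12, Serpinb3, Serpinb7 and Serpinb2. By contrast Serpinb6a, Serpinb9b, Serpinb9 and Serpinb1a, 4 neighbours in another place, were all tested. Neighbours are genes within 10 protein-coding genes of the next in the RefSeq order of the GRCr8 assembly. The remaining untested genes were Mmp9, Adam15, Adam2, Adam23, Adam32, Adam3a, Adam6, Adam7, Adam9, Plaur, Serpina7, Serpine3, Serpinf2, Serping1, Serpini1, Serpini2 and Ctsk. Some of these have tested neighbours. Serpinf1, Ctsb, Ctss and Ctsa were tested beside the untested Serpinf2, Serpine3, Ctsk and Mmp9, in turn. Adam18 was tested beside Adam9, Adam32 and Adam3a, which were not. The neighbours Ctsh and Adamts7 were both tested, and Serpini2 and Serpini1 were not. With 40 of the 85 member genes untested, whether neighbours went together more often than other members was not tested. Signals of the 55 untested member probe sets ran from 5.1 to 1152, with a median probe set mean of 305.9, and dim probe sets here cannot show whether a gene is off.

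The labelled tissue was checked first. Of the ureteric epithelial markers on the array 11 of 13 passed the filter, among them Ret, Gfra1, Cdh1, Epcam, Krt8 and Krt18, and Hoxb7 and Calb1 did not. Some of these markers differed between media. In HRG against BSN Ret fell 14.5-fold (adjusted p = 1.8e-08), Gfra1 2.8-fold (adjusted p = 2.62e-05) and Lhx1 2.56-fold (adjusted p = 0.000192), while Krt19 rose 3.67-fold (adjusted p = 5.15e-06). In PTN against BSN Krt18 fell 1.8-fold (adjusted p = 0.00311), Cdh16 1.67-fold (adjusted p = 0.00367) and Krt8 1.33-fold (adjusted p = 0.0453). Ret rose 1.4-fold there on 1370989_at (adjusted p = 0.0424) and not on 1371112_at (adjusted p = 0.999). In HRG against PTN Ret fell 20.3-fold (adjusted p = 4.14e-09), Gfra1 2.73-fold (adjusted p = 1.92e-05) and Lhx1 2.47-fold (adjusted p = 0.000146). Krt19 rose 4.84-fold (adjusted p = 7.89e-07) and Krt18 1.89-fold (adjusted p = 0.00117) in that comparison. Cdh16 rose 1.64-fold there (adjusted p = 0.00304) and Krt8 1.59-fold (adjusted p = 0.00299). The part of these marker differences in the results was not tested. The summed epithelial signal was 160830 to 176067 in HRG, 140866 to 166160 in PTN and 168514 to 180638 in BSN. Mesenchymal and stromal markers passed for 4 of 12, with Pdgfra, Pdgfrb, Dcn, Lum, Tagln, Twist1, Postn and Wt1 below the filter, and endothelial markers for 2 of 7. The endothelial sum was 2700 to 3552 in HRG, 2676 to 3215 in PTN and 2848 to 3384 in BSN, and the endothelial receptor Kdr, on a dim probe set, fell in HRG against PTN (adjusted p = 0.00258) and BSN (adjusted p = 0.00792). The mesenchymal sum was 4048 to 4832 in HRG, 4044 to 4979 in PTN and 4445 to 5566 in BSN. Leukocyte markers passed for 6 of 13. The leukocyte genes Ptprc, Cd68, Tyrobp, C1qb, C1qc, Cd14 and Laptm5 did not, and the summed leukocyte signal was 7021 to 8485 in HRG, 6185 to 7974 in PTN and 7810 to 9154 in BSN. The actin 3'/5' signal ratio, which moves with RNA integrity and amplification, was 18.6 to 29.6 in HRG, 15.3 to 18.1 in PTN and 28 to 37.8 in BSN. PTN did not overlap either other medium in this ratio. The GAPDH 3'/5' ratio was 2.01 to 3.49 in HRG, 2.97 to 6.85 in PTN and 3.75 to 5.83 in BSN, where HRG and BSN did not overlap. The part of RNA quality in the differences between media was not tested. In bulk samples fewer cells of a type and less RNA per cell cannot be told apart.

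Promoters of 4 genes that the results turn on are shown. Serpinb1a and Ctse had the largest rises in HRG against BSN, Ctsc rose on both of its probe sets in that comparison, and Serpine2 moved the other way, lowest in HRG and highest in PTN. Each sequence runs from 250 bases before to 50 bases after the RefSeq start site, 5′ to 3′ on the gene's strand in GRCr8. Serpinb1a lies at chr17:31799196-31799495 (+), Ctse at chr13:45643965-45644264 (+), Ctsc at chr1:151440799-151441098 (+) and Serpine2 at chr9:88637153-88637452 (-). Capitals mark matches, on either strand, to the AP-1 site TGANTCA, the E-box CACGTG, the GC-box GGGCGG or the TATA-box TATAAA.
Serpinb1a: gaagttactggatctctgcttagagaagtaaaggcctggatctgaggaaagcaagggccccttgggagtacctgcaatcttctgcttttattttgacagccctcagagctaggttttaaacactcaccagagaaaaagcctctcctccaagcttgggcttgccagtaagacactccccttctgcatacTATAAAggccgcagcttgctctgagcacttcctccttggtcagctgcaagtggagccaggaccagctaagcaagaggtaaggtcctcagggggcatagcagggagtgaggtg
Ctse: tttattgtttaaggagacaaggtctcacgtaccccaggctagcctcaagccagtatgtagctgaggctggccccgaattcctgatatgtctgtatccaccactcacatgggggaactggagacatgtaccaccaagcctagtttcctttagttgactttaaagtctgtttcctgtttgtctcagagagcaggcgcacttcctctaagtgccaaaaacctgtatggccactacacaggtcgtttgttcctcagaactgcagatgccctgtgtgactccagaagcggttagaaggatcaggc
Ctsc: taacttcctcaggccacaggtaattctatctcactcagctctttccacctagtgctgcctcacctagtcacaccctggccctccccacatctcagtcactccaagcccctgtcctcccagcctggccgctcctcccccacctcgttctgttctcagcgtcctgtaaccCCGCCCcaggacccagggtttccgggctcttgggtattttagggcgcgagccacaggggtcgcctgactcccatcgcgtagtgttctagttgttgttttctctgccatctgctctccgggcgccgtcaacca
Serpine2: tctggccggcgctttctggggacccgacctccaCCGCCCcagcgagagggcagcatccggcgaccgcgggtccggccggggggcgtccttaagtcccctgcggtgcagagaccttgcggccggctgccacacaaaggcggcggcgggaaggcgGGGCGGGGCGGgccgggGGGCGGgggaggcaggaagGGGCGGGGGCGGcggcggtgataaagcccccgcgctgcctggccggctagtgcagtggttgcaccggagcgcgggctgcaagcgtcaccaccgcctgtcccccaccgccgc

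The GC content of these windows was 51.7% for Serpinb1a, 49.3% for Ctse, 59.7% for Ctsc and 77% for Serpine2. Serpinb1a held 1 TATA-box, starting 62 bases before the start site, Ctsc held 1 GC-box and Serpine2 held 6 GC-boxes, of which a pair overlaps by a base, with no overlap between different motifs. None of the 4 motifs was found in the Ctse window. Among all 33469 promoters in the table, which include noncoding genes, 7.33% held the AP-1 site, 6.42% the E-box, 33.1% the GC-box and 14.2% the TATA-box. Among the 37 windows of tested member genes, 2.7% held the AP-1 site, 10.8% the E-box, 78.4% the GC-box and 10.8% the TATA-box. A GC-box thus does not set Ctsc or Serpine2 apart from other tested members. Windows were found for 61 of the 85 member genes. A match of letters does not show a factor's binding, and the array data do not bear on which of these sites is used.

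**Figure D1:**
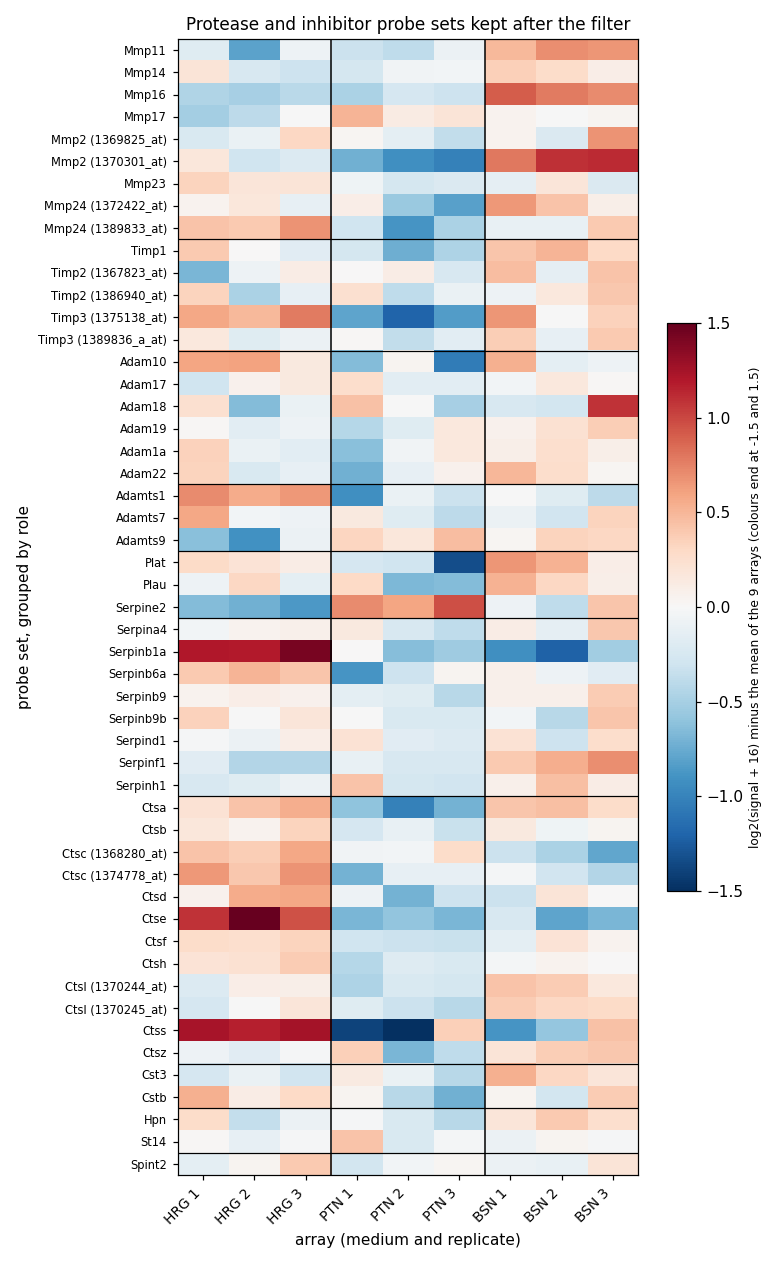
Heat map of the 51 tested probe sets (rows, grouped by role) on the 9 arrays (columns, HRG, PTN and BSN), coloured by log2(signal + 16) minus the probe set's mean over the arrays, red above and blue below that mean. Serpinb1a, Ctse and Ctss are darkest red in HRG, Mmp2 (1370301_at) and Mmp16 are red in BSN, and Serpine2 is red in PTN and blue in HRG.

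In the heat map most probe sets vary less between media than Serpinb1a, Ctse or Mmp2 do. Tests used limma on log2(signal + 16), so a log2 difference of 1 is a doubling, with Benjamini-Hochberg adjustment over all 10106 probe sets tested and a threshold of 0.05. In HRG against BSN 6 of 51 member probe sets rose and 7 fell, where 6.92% of all tested probe sets rose and 8.86% fell. In HRG against PTN 18 rose and 3 fell, where 14.1% and 11.7% of all did. In PTN against BSN 2 rose and 12 fell, where 9.15% and 13.4% of all did. As shares of the tested members these are 11.8% and 13.7%, then 35.3% and 5.88%, then 3.92% and 23.5%.

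The median log2 difference of the member probe sets was -0.12 in HRG against BSN, 0.30 in HRG against PTN and -0.33 in PTN against BSN, beside -0.04, 0.08 and -0.11 for all tested probe sets. The differences from PTN moved with the scaling. After median centring of the arrays, the median of all probe sets in PTN against BSN moved to 0.01, and the calls over all probe sets changed from 925 higher and 1351 lower to 1342 higher and 884 lower. In HRG against PTN they changed from 1423 higher and 1180 lower to 1077 higher and 1418 lower. The member counts after centring were 16 higher and 3 lower in HRG against PTN and 3 higher and 10 lower in PTN against BSN, with member medians of 0.22 and -0.21.

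**Figure D2:**
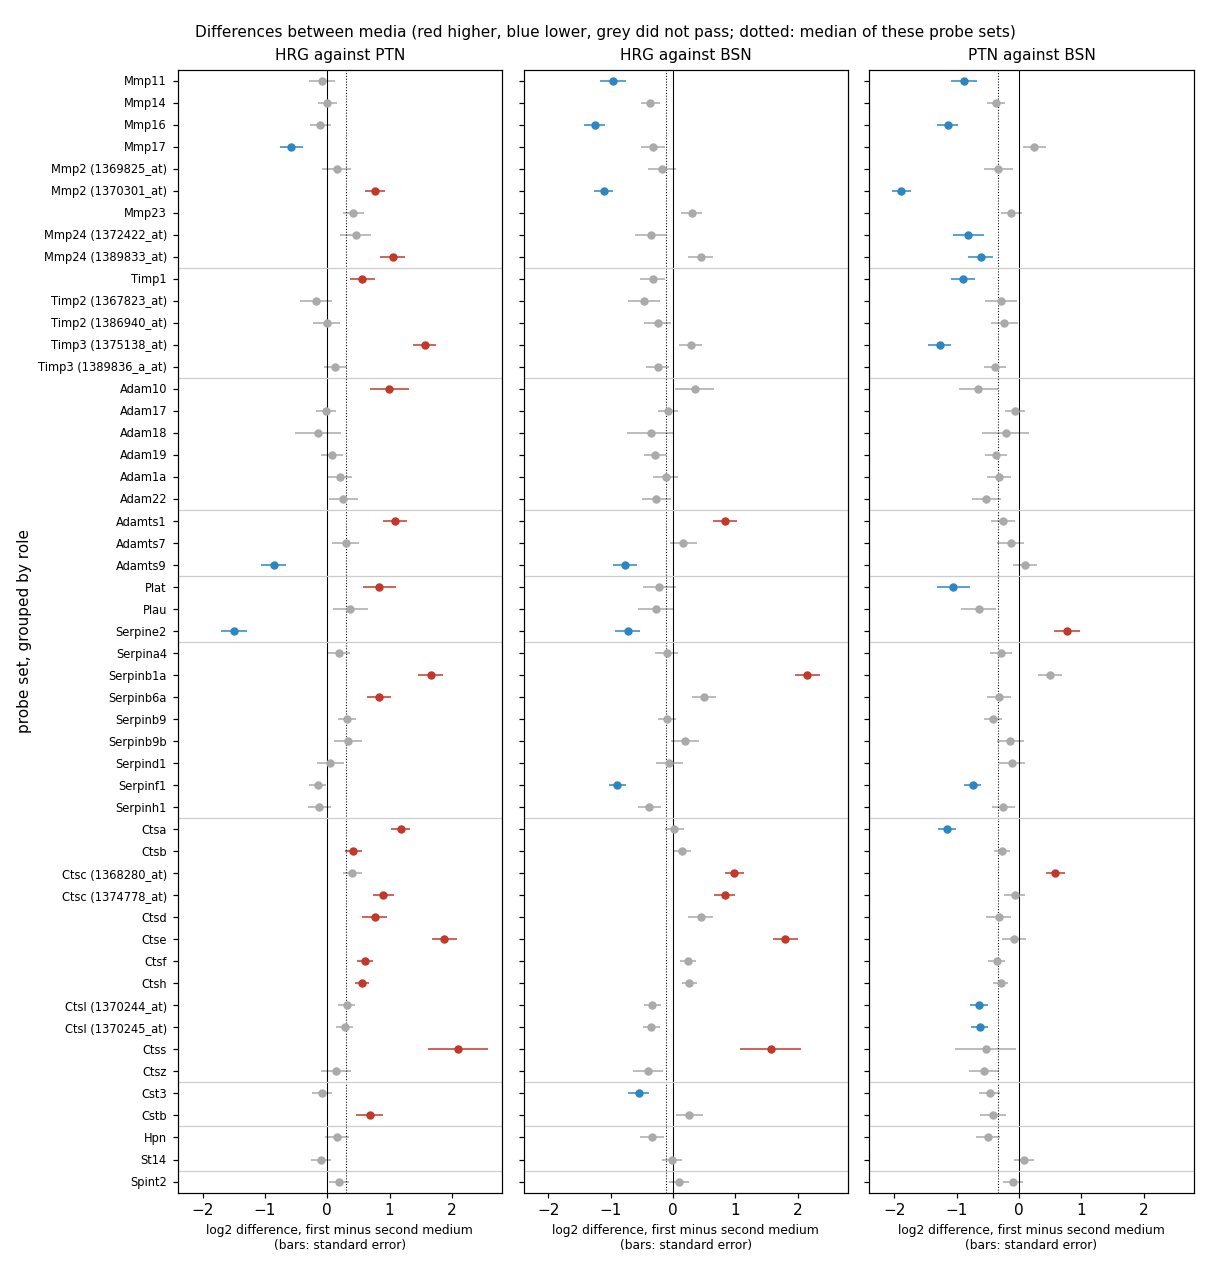
Log2 differences (points) with standard errors (bars) of the 51 tested probe sets in the 3 comparisons, first medium minus second, with red for higher, blue for lower and grey for probe sets that did not pass, and a dotted line at the median of the members. All 12 cathepsin probe sets lie right of 0 in HRG against PTN (Ctss met the filter through HRG alone), and the metalloproteases that passed in PTN against BSN lie left of 0.

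Among the metalloproteases, expression in both HRG and PTN was below that in conditioned medium for Mmp2, Mmp11 and Mmp16. Mmp2 encodes gelatinase A, which cuts denatured and type 4 collagen. Its probe set 1370301_at read 9868, 7104 and 7587 in HRG, 5320, 4634 and 4329 in PTN and 15149, 18747 and 19100 in BSN. The 3 media did not overlap, with BSN highest and PTN lowest. Mmp2 on this probe set fell 2.17-fold in HRG against BSN (adjusted p = 0.000371) and 3.7-fold in PTN against BSN (adjusted p = 1.59e-05), and it was 1.71-fold higher in HRG than in PTN (adjusted p = 0.00309). The other Mmp2 probe set, 1369825_at, did not follow it. It read 1042, 1138 and 1520 in HRG, 1246, 1109 and 947 in PTN and 1272, 1050 and 1972 in BSN, and it passed in no comparison (adjusted p = 0.669, 0.672 and 0.317 for HRG against BSN, HRG against PTN and PTN against BSN). The 95% intervals of its log2 differences from BSN were -0.68 to 0.32 for HRG and -0.83 to 0.16 for PTN, which leave out the differences seen on 1370301_at. The Mmp2 calls thus rest on 1 of 2 probe sets.

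Mmp16 encodes a membrane-anchored metalloprotease that can activate Mmp2. It read 618, 596 and 638 in HRG, 609, 710 and 685 in PTN and 1612, 1479 and 1401 in BSN, so that HRG and PTN lay near the 40th percentile and BSN lay clear above it. Mmp16 fell in HRG against BSN (adjusted p = 0.000271), where its HRG mean was below the percentile and no fold is given, and fell 2.21-fold in PTN against BSN (adjusted p = 0.00067). HRG and PTN overlapped (adjusted p = 0.679). Mmp11, encoding stromelysin 3, showed the same order: 824, 528 and 886 in HRG, 746, 714 and 876 in PTN and 1318, 1522 and 1493 in BSN. It fell 1.96-fold in HRG (adjusted p = 0.00663) and 1.84-fold in PTN (adjusted p = 0.00988), both against BSN. The Mmp11 mean in HRG, 745.8, was close to the mean 40th percentile of 691.1, which limits how far that fold can be read. Mmp14, the membrane type 1 enzyme that activates Mmp2 on the cell surface, was bright in every medium at 8521 ± 1686.5 in HRG, 8415 ± 709.2 in PTN and 10874 ± 995.5 in BSN (SD, n = 3), and passed in no comparison (adjusted p = 0.135 for HRG and 0.101 for PTN against BSN).

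Mmp24, another membrane-type enzyme, differed between HRG and PTN on the probe set 1389833_at only, and Mmp17, a lipid-anchored one, differed between them as well. The Mmp24 probe set 1389833_at read 1520, 1490 and 1810 in HRG, 912, 604 and 806 in PTN and 1041, 1043 and 1490 in BSN, and was 2.08-fold higher in HRG than in PTN (adjusted p = 0.00204). A second tested probe set, 1372422_at, read 828, 902 and 730 in HRG, 856, 536 and 448 in PTN and 1265, 1075 and 851 in BSN. It did not pass in HRG against PTN (adjusted p = 0.203), and 1368595_at was below the filter. In HRG against BSN the tested probe sets had opposite signs, at log2 0.442 and -0.356, and neither passed. The fall of 1389833_at in PTN against BSN (adjusted p = 0.0448) was lost when any single array other than PTN array 1 was left out, at adjusted p of 0.0569 to 0.188. The fall of 1372422_at in PTN against BSN (adjusted p = 0.0336) was lost without BSN array 1 or 2 or PTN array 2 or 3 (0.0857 to 0.128), and both of these falls were lost with the arrays centred or quantile normalized. Mmp17 read 637, 690 and 908 in HRG, 1304, 994 and 1041 in PTN and 942, 908 and 934 in BSN, a 1.49-fold fall in HRG against PTN (adjusted p = 0.0409). That call was lost with replicate number as a block (adjusted p = 0.0519) and when any single array other than HRG array 3 was left out (0.0532 to 0.138). Mmp23 passed in no comparison, at 1222 ± 73.8 in HRG, 909.7 ± 69.8 in PTN and 995.7 ± 150.2 in BSN (SD, n = 3).

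Over the metalloprotease role, 9 probe sets of 7 genes were tested. None rose (1 at an unadjusted p under 0.05) and 3 fell in HRG against BSN, 2 rose and 1 fell in HRG against PTN, and none rose (none unadjusted either) and 5 fell in PTN against BSN, or 3 fell after centring or quantile normalization. As shares, 0% rose and 33.3% fell in HRG against BSN, beside 6.92% and 8.86% of all tested probe sets. In HRG against PTN the shares were 22.2% and 11.1%, near the 14.1% and 11.7% of all. In PTN against BSN they were 0% and 55.6%, beside 9.15% and 13.4%. With so few probe sets these shares are coarse.

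Timp3 is a Timp that binds to the matrix. Its probe set 1375138_at read 2548, 2378 and 2931 in HRG, 972, 728 and 942 in PTN and 2686, 1685 and 2162 in BSN. PTN was below both other media on every array, while HRG and BSN overlapped (adjusted p = 0.35). Timp3 on this probe set was 2.95-fold higher in HRG than in PTN (adjusted p = 5.99e-05) and fell 2.42-fold in PTN against BSN (adjusted p = 0.0006).

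The other tested Timp3 probe set, 1389836_a_at, read 1661, 1306 and 1397 in HRG, 1508, 1148 and 1328 in PTN and 1924, 1361 and 1950 in BSN, and passed in no comparison (adjusted p = 0.403, 0.635 and 0.145 for HRG against BSN, HRG against PTN and PTN against BSN). The remaining Timp3 probe sets stayed below the filter: 1372926_at read 560, 433 and 247 in HRG, 375, 221 and 261 in PTN and 442, 573 and 614 in BSN, and 1368989_at read 119, 89 and 77 in HRG, 92, 69 and 69 in PTN and 104, 104 and 112 in BSN. On both of these untested probe sets every PTN array was below every BSN array. The mean 40th percentile was also lower in PTN (632.2) than in BSN (750). The share of all dim probe sets with this order was not computed, so it is no support for 1375138_at. Of the 4 Timp3 probe sets, then, 1 passed the test, 1 did not and 2 were too dim to be tested. Timp1, a secreted inhibitor, fell 1.86-fold in PTN against BSN, at 821, 590 and 712 in PTN and 1326, 1418 and 1218 in BSN (adjusted p = 0.00629). Its 1.48-fold rise in HRG over PTN (HRG arrays at 1305, 995 and 878, adjusted p = 0.0484) was lost without BSN array 1, 2 or 3, HRG array 1 or 2, or PTN array 2 or 3 (0.062 to 0.196), and after centring or quantile normalization. Timp2, which takes part in the activation of Mmp2 by Mmp14, passed in no comparison on either tested probe set, and 1386940_at averaged 2562 ± 733.9 in HRG, 2550 ± 556 in PTN and 2989 ± 508.4 in BSN (SD, n = 3).

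**Figure D3:**
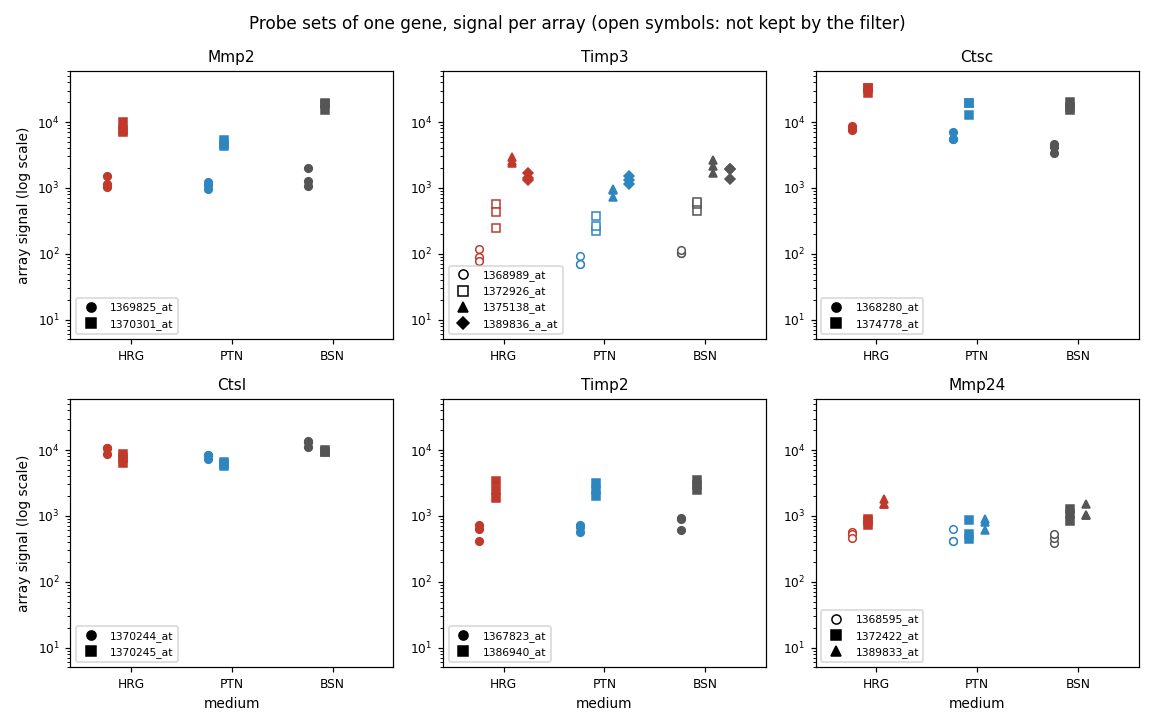
Signal per array, on a log axis, of each probe set of Mmp2, Timp3, Ctsc, Ctsl, Timp2 and Mmp24, with HRG, PTN and BSN from left to right, a symbol for each probe set and open symbols for probe sets below the filter. Mmp2 and Timp3 each have 1 tested probe set that passed and 1 that did not, and both Ctsl probe sets move together.

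Adam proteases release growth factors and receptors from the cell surface. Of 6 tested probe sets none passed limma's test against BSN in either medium. Of all tested probe sets 6.92% rose and 8.86% fell in HRG against BSN, and 9.15% and 13.4% in PTN against BSN. With 6 probe sets a count of 0 is near these shares. The median absolute log2 difference from BSN was 0.283 in HRG and 0.345 in PTN, beside 0.226 and 0.291 for all tested probe sets. At an unadjusted p under 0.05, 0 differed in HRG against BSN, and only Adam22 (1, lower) in PTN against BSN. Adam17, the main sheddase of ErbB ligands, averaged 5050 ± 802.3 in HRG, 5105 ± 896.3 in PTN and 5287 ± 380.3 in BSN (SD, n = 3), with 95% intervals of the log2 difference of -0.43 to 0.27 for HRG and -0.41 to 0.29 for PTN against BSN. Adam1a averaged 4625 ± 945 in HRG, 4068 ± 1070.7 in PTN and 4962 ± 327.2 in BSN, and passed in no comparison, nor did Adam19, Adam22 or Adam18. Adam10, a sheddase of Notch and cadherins, read 900, 906 and 654 in HRG against 372, 609 and 278 in PTN on a dim probe set (adjusted p = 0.0316), a call lost without HRG array 1, HRG array 2 or PTN array 3 (0.1 to 0.11) and after quantile normalization, and its other probe set was below the filter.

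The Adamts genes, whose secreted products cut proteoglycans such as versican, moved in opposite directions in heregulin. Adamts1 was bright and read 19984, 17937 and 19067 in HRG, 6404, 11361 and 9744 in PTN and 12127, 10726 and 9297 in BSN. All HRG arrays were above all others, and PTN and BSN overlapped. Adamts1 rose 1.78-fold in HRG against BSN (adjusted p = 0.00865) and 2.13-fold against PTN (adjusted p = 0.00101). Adamts9 read 1168, 960 and 1709 in HRG, 2282, 2043 and 2505 in PTN and 1860, 2300 and 2256 in BSN, and so was lowest in HRG. It fell 1.82-fold against PTN (adjusted p = 0.00597) and 1.7-fold against BSN (adjusted p = 0.0169), and the call against BSN was lost when BSN array 2 or 3 or HRG array 1 or 2 was left out (0.0584 to 0.0816). Adamts7 averaged 2112 ± 569.2 in HRG, 1698 ± 333.6 in PTN and 1871 ± 428.1 in BSN and passed in no comparison.

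**Figure D4:**
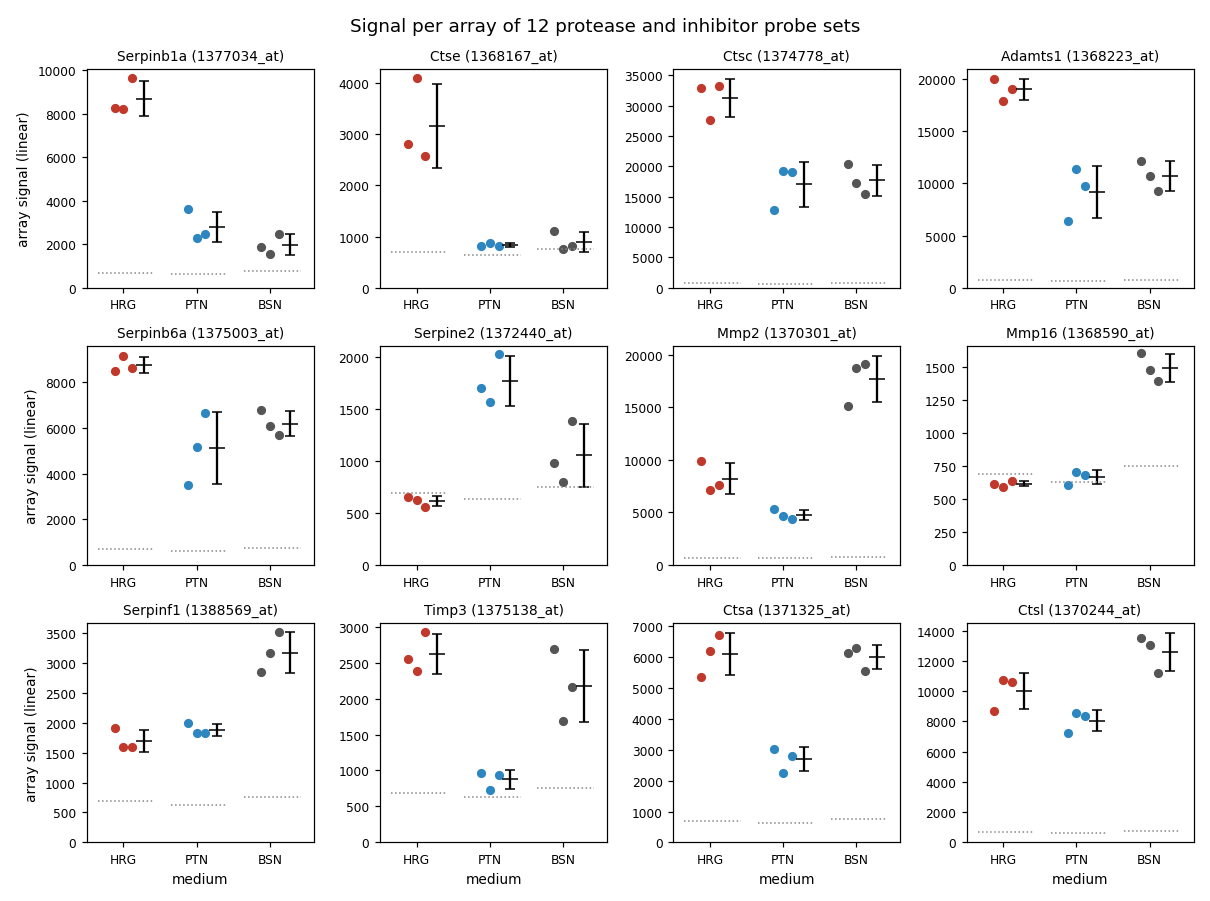
Linear signal of 12 member probe sets on each array (dots) in HRG, PTN and BSN, with the mean and SD of 3 arrays beside them (bar with caps) and the mean 40th percentile of the medium's arrays (dotted). Serpinb1a, Ctse, Ctsc and Adamts1 are highest in HRG, Mmp2, Mmp16, Serpinf1 and Ctsl in BSN, and Serpine2 in PTN, while Timp3 and Ctsa are low in PTN.

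In the plasminogen activator system Serpine2 gave the clearest difference. Serpine2, or protease nexin 1, inhibits thrombin, plasmin and both plasminogen activators. It read 656, 624 and 563 in HRG, 1705, 1573 and 2036 in PTN and 983, 796 and 1391 in BSN. The media did not overlap, with PTN highest and HRG lowest, and the HRG mean was below the 40th percentile, so no fold is given for HRG. Serpine2 fell in HRG against PTN (adjusted p = 0.000193, passed under all 18 alternatives) and against BSN (adjusted p = 0.0296), and rose 1.7-fold in PTN against BSN (adjusted p = 0.019). The fall against BSN was lost without BSN array 1 or 3 or any 1 of the HRG arrays (0.0522 to 0.134), and the rise in PTN when BSN array 1 or 2 or PTN array 3 was left out (0.0617 to 0.077).

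Plat, the tissue plasminogen activator, read 1248, 1176 and 1103 in HRG, 850, 822 and 394 in PTN and 1625, 1463 and 1088 in BSN. It fell 2.08-fold in PTN against BSN (adjusted p = 0.0132, and 0.0585 without BSN array 1). It was 1.78-fold higher in HRG than in PTN (adjusted p = 0.0351), a call lost after quantile normalization and without BSN array 2, PTN array 3 or any 1 of the HRG arrays (0.0501 to 0.108). Plau, the urokinase activator, passed in no comparison at 696.8 ± 126.8 in HRG, 559.1 ± 239 in PTN and 845.9 ± 130 in BSN (SD, n = 3), and its receptor Plaur was below the filter on both probe sets.

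Serpinb1a had the largest rise of any tested member in HRG against BSN. It encodes an intracellular serpin that inhibits elastase-like proteases and is best known from neutrophils. It read 8241, 8200 and 9614 in HRG, 3600, 2293 and 2466 in PTN and 1887, 1535 and 2483 in BSN, with every HRG array above all others. Serpinb1a rose 4.46-fold against BSN (adjusted p = 1.29e-05) and 3.16-fold against PTN (adjusted p = 6.87e-05), and passed both tests under all 18 alternatives. PTN was 1.41-fold above BSN without passing (adjusted p = 0.0925), and it did pass with arrays centred (0.0357) or quantile normalized (0.0409) and without BSN array 3 (0.0478).

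Of its tested neighbours in the genome only Serpinb6a passed in any comparison, and whether they differ from each other was not tested. Serpinb6a, another intracellular serpin, read 8484, 9156 and 8603 in HRG, 3487, 5176 and 6637 in PTN and 6763, 6101 and 5709 in BSN. It rose 1.77-fold in HRG against PTN (adjusted p = 0.00725), and its 1.41-fold difference from BSN did not pass (adjusted p = 0.106) although the arrays did not overlap. Serpinb9, an inhibitor of granzyme B, and Serpinb9b passed in no comparison, with Serpinb9 at 1589 ± 28.1 in HRG, 1273 ± 128.5 in PTN and 1715 ± 215.2 in BSN (SD, n = 3). Of the 6 leukocyte markers tested none passed as higher in HRG in either comparison, at the adjusted threshold or at an unadjusted p under 0.05. Of all tested probe sets 6.92% rose in HRG against BSN and 14.1% against PTN. With 6 markers a count of 0 is near these shares. Cd74 fell in PTN against BSN (adjusted p = 0.0331). The part of leukocytes in the Serpinb1a values was not tested.

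Serpinf1, which encodes pigment epithelium-derived factor, a secreted serpin without inhibitory activity, was lower in both HRG and PTN than in BSN. It read 1911, 1594 and 1588 in HRG, 2000, 1828 and 1824 in PTN and 2842, 3156 and 3513 in BSN. The fall against BSN was 1.86-fold in HRG (adjusted p = 0.000747) and 1.67-fold in PTN (adjusted p = 0.00277), and HRG and PTN overlapped (adjusted p = 0.455). Serpinh1, the collagen chaperone Hsp47, had 5869 ± 325.7 in HRG, 6593 ± 2003.6 in PTN and 7689 ± 1148.4 in BSN (SD, n = 3) and passed in no comparison, nor did Serpina4 or Serpind1.

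Cathepsin calls in HRG were all rises. Of 12 tested probe sets for 10 genes, 8 rose and none fell in HRG against PTN (none unadjusted either), with a median log2 difference of 0.58, and all 12 differences were above 0, the lowest being 0.15. After centring 7 rose and after quantile normalization 8. As a share 66.7% of the cathepsin probe sets rose in HRG against PTN, beside 14.1% of all probe sets. These counts and this share include Ctss, which met the filter through HRG alone and so was bound to look raised in HRG. In HRG against BSN 4 rose, Ctss among them, and none fell (2 were lower at an unadjusted p under 0.05), with 1 falling after quantile normalization. In PTN against BSN 1 rose and 3 fell. The shares were 33.3% and 0% in HRG against BSN, beside 6.92% and 8.86% of all probe sets. In PTN against BSN they were 8.33% and 25%, beside 9.15% and 13.4%.

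Cathepsin E, an aspartic protease of endosomes in gastric and other epithelia, gave the largest fold among cathepsin probe sets for which a fold is given. Ctse read 2817, 4107 and 2568 in HRG, 813, 871 and 812 in PTN and 1109, 757 and 812 in BSN. It rose 3.67-fold against PTN (adjusted p = 2.47e-05) and 3.47-fold against BSN (adjusted p = 5.73e-05), and PTN and BSN overlapped (adjusted p = 0.803). Ctsc, or dipeptidyl peptidase 1, activates serine proteases of granules. The probe set 1374778_at read 32816, 27648 and 33289 in HRG, 12769, 19136 and 19123 in PTN and 20423, 17193 and 15392 in BSN, and 1368280_at read 7787, 7475 and 8662 in HRG, 5575, 5608 and 6988 in PTN and 4631, 4162 and 3360 in BSN. On both, HRG was above the other media on every array. Against BSN Ctsc rose 1.77-fold on 1374778_at (adjusted p = 0.00487) and 1.98-fold on 1368280_at (adjusted p = 0.000748) in HRG.

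The Ctsc probe sets differed over PTN. The first, 1374778_at, rose 1.86-fold in HRG against PTN (adjusted p = 0.00194) and did not pass between PTN and BSN (adjusted p = 0.798, 95% interval -0.44 to 0.30 on the log2 scale). The second, 1368280_at, missed the threshold in HRG against PTN (1.32-fold, adjusted p = 0.0715) and was 1.5-fold higher in PTN than in BSN (adjusted p = 0.0162), a call lost without BSN array 3 or PTN array 3 (0.0706 to 0.0816). Ctss, a cysteine cathepsin known from antigen-presenting cells, read 1060, 1008 and 1067 in HRG, 158, 134 and 567 in PTN and 231, 289 and 599 in BSN. HRG was thus above the filter on all of its arrays and the other media on none. Ctss rose against PTN (adjusted p = 0.00689) and against BSN (adjusted p = 0.0462, lost without BSN array 1 or 2 or any 1 of the HRG arrays at 0.112 to 0.153, and with a pseudocount of 1). It is a dim probe set that met the filter through HRG alone. No fold is given for it, and since the filter took it in through HRG its p-values are no independent support. Of the 6 tested leukocyte markers none passed in HRG against either medium, with median log2 differences of 0.19 against PTN and -0.10 against BSN. Of all tested probe sets 14.1% rose and 11.7% fell against PTN, and 6.92% and 8.86% against BSN. With 6 markers a count of 0 is near these shares. Ptprc, Cd68 and Tyrobp were below the filter, and the part of leukocytes in the Ctss values was not tested.

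Ctsa, or protective protein, a lysosomal carboxypeptidase that stabilises other hydrolases, was low in PTN alone. It read 5360, 6191 and 6727 in HRG, 3021, 2260 and 2806 in PTN and 6133, 6281 and 5552 in BSN. Ctsa was 2.26-fold higher in HRG than in PTN (adjusted p = 8.98e-05) and fell 2.23-fold in PTN against BSN (adjusted p = 0.000252), while HRG and BSN differed by a log2 of 0.02 (95% interval -0.30 to 0.34). Ctsl, the cysteine cathepsin L, moved alike on both probe sets. On 1370244_at it read 8655, 10743 and 10602 in HRG, 7242, 8554 and 8341 in PTN and 13510, 13045 and 11163 in BSN, and it fell 1.56-fold and 1.55-fold in PTN against BSN on 1370244_at and 1370245_at (adjusted p = 0.00594 and 0.00633). The HRG mean lay between and passed against neither medium on either probe set (adjusted p = 0.132 and 0.11 against BSN).

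Ctsh, Ctsf, Ctsd and Ctsb, lysosomal cathepsins found in most tissues, each rose in HRG against PTN and passed in no other comparison. Ctsh read 20620, 20963 and 23245 in HRG against 13235, 15597 and 15205 in PTN, a 1.47-fold rise (adjusted p = 0.00339). Ctsf rose 1.52-fold (adjusted p = 0.00456). The aspartic cathepsin Ctsd rose 1.7-fold (adjusted p = 0.0136), a call lost without HRG array 2, HRG array 3 or PTN array 2 (0.0563 to 0.0604). Ctsb rose 1.34-fold (adjusted p = 0.032), which was lost after centring and without HRG array 1, HRG array 3 or PTN array 3 (0.0711 to 0.134). Ctsz, at 814.4 ± 44.9 in HRG, 769.8 ± 306.3 in PTN and 1087 ± 84.6 in BSN (SD, n = 3), passed in no comparison.

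Of the cystatins, Cst3, or cystatin C, is secreted and Cstb, or cystatin B, is cytosolic. Cst3 read 1384, 1544 and 1358 in HRG, 1823, 1541 and 1236 in PTN and 2403, 2062 and 1878 in BSN. Its 1.47-fold fall in HRG against BSN (adjusted p = 0.0385) was lost after quantile normalization and without any 1 array of either medium (0.051 to 0.148). Cstb was 1.6-fold higher in HRG than in PTN, at 3047, 2263 and 2593 in HRG and 2161, 1572 and 1264 in PTN (adjusted p = 0.033), a call lost without HRG array 1, HRG array 3, PTN array 2 or PTN array 3 (0.0775 to 0.128).

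The membrane serine proteases and their inhibitor passed in no comparison with limma, and at an unadjusted p under 0.05 only Hpn (1, lower) did so, in PTN against BSN. St14, or matriptase, an epithelial surface protease, averaged 7112 ± 379.4 in HRG, 7758 ± 1881.3 in PTN and 7212 ± 327.6 in BSN, and Spint2, its Kunitz-type inhibitor, averaged 12363 ± 2375.7 in HRG, 10758 ± 1141.7 in PTN and 11479 ± 1390.4 in BSN (SD, n = 3). Their log2 differences between HRG and BSN had 95% intervals of -0.36 to 0.32 for St14 and -0.24 to 0.44 for Spint2. Hpn, or hepsin, averaged 1023 ± 233.4 in HRG, 903.4 ± 129.6 in PTN and 1274 ± 97.7 in BSN.

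Other proteases, inhibitors and receptors outside the member rule were counted beside them, a gene with several probe sets being counted by the one with most signal on average. Of 33 such genes tested, 10 rose and 1 fell in HRG against PTN, 3 rose and 3 fell in HRG against BSN, and none rose (none unadjusted either) and 6 fell in PTN against BSN. After centring the counts were 9 and 1, 4 and 3, and 0 and 6. As shares, 30.3% rose and 3.03% fell in HRG against PTN, beside 14.1% and 11.7% of all tested probe sets. In HRG against BSN the shares were 9.09% and 9.09%, beside 6.92% and 8.86%. In PTN against BSN they were 0% and 18.2%, beside 9.15% and 13.4%. Tmprss2, a membrane serine protease of epithelia, was at 25857 in HRG, 10365 in PTN and 10282 in BSN on average, and rose 2.49-fold against PTN (adjusted p = 1.89e-05) and 2.51-fold against BSN (adjusted p = 2.84e-05). Its other probe set, 1387833_at, passed against BSN (adjusted p = 0.0404) but not against PTN (adjusted p = 0.145). Anxa2, which assembles plasminogen and its activator at the cell surface, rose 3.69-fold in HRG against PTN (adjusted p = 2.21e-06) and fell 2.58-fold in PTN against BSN (adjusted p = 7.8e-05). Its 1.43-fold rise in HRG against BSN (adjusted p = 0.0299) was lost when BSN array 2 or 3 or HRG array 1 or 3 was left out (0.0717 to 0.118) and after quantile normalization.

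Htra3, a secreted serine protease, fell 3.75-fold in HRG (adjusted p = 1.23e-05) and 5.67-fold in PTN (adjusted p = 4.83e-06) against BSN on 1372565_at. Its other probe set, 1375306_at, passed in neither comparison, at 1227, 937 and 1145 in HRG, 1023, 1086 and 990 in PTN and 1004, 901 and 1072 in BSN (adjusted p = 0.63 for HRG and 0.825 for PTN against BSN). Slpi, a secreted leukocyte protease inhibitor, rose in HRG against PTN (adjusted p = 0.00456) and fell in PTN against BSN (adjusted p = 0.00378), with a PTN mean of 294 that is below the 40th percentile. Lrp2, the endocytic receptor megalin, rose 3.37-fold in HRG against BSN (adjusted p = 0.00147), while Lrp1, a receptor that clears protease and serpin complexes, fell 1.54-fold (adjusted p = 0.0323, lost without any 1 of the BSN arrays or HRG array 2 or 3 at 0.0676 to 0.108). Lcn2, a lipocalin that binds Mmp9, fell in HRG against BSN (adjusted p = 0.0123, lost without BSN array 2 or 3 at 0.0544 and 0.0645) and against PTN (adjusted p = 0.0429, lost without BSN array 2, HRG array 1 or 3, or PTN array 1 or 2 at 0.0616 to 0.161), with an HRG mean of 382.2.

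Lysosome genes, counted likewise, are given beside the cathepsins. Of 40 tested, 11 rose and none fell (1 unadjusted) in HRG against PTN (9 rose after centring), 1 rose and 2 fell in HRG against BSN (4 and 2 after centring), and none rose (none unadjusted either) and 12 fell in PTN against BSN (11 fell after centring). As shares, 27.5% rose and 0% fell in HRG against PTN, beside 14.1% and 11.7% of all tested probe sets. In HRG against BSN the shares were 2.5% and 5%, beside 6.92% and 8.86%. In PTN against BSN they were 0% and 30%, beside 9.15% and 13.4%. The median log2 differences of the lysosome genes were 0.30, 0.01 and -0.29, beside 0.58, 0.25 and -0.34 for the cathepsins. Whether cathepsins differ from other lysosome genes was not tested. Asah1, acid ceramidase, rose in HRG by 2.33-fold against PTN (adjusted p = 3.66e-05) and 1.91-fold against BSN (adjusted p = 0.000458) on 1374770_at. On its other probe set, 1369077_at, it passed in neither (adjusted p = 0.0616 against PTN and 0.912 against BSN). Manba, beta-mannosidase, rose 2.11-fold in HRG against PTN (adjusted p = 0.000122), and Dpp7, a lysosomal dipeptidyl peptidase, 1.84-fold (adjusted p = 0.0202, lost without HRG array 1, PTN array 2 or PTN array 3 at 0.0717 to 0.0835).

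In PTN against BSN the largest falls of the lysosome list were those of Dpp7 at 2.46-fold (adjusted p = 0.00327), the carboxypeptidase Scpep1 at 2.32-fold (adjusted p = 0.000696) and Igf2r, the receptor that sorts hydrolases to lysosomes, at 2-fold (adjusted p = 0.000424). The Igf2r fall is on 1386872_at only, since the other probe set, 1367636_at, rose 1.74-fold at 7248, 6552 and 6931 in PTN against 4084, 3948 and 3827 in BSN (adjusted p = 0.000948), so the direction of Igf2r is not settled. In HRG against BSN Gaa, acid alpha-glucosidase, fell 1.64-fold (adjusted p = 0.00429) and Scpep1 1.62-fold (adjusted p = 0.019, lost when BSN array 2 or 3 or HRG array 1 was left out at 0.0582 to 0.0928).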

How the data were processed

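Gene expression was measured on 9 Affymetrix rat arrays, 3 per medium. The authors deposited GCOS signal intensities on a linear scale, per the labels and the submitters' processing notes, which name GCOS without a version. RNA went through 2 rounds of in vitro transcription before labelling, per the labels' protocols. Trimmed means, leaving out 2% at each end, were 2500.48 to 2500.58 on all arrays, so no scaling was added. The number of arrays limits precision. Of 15923 probe sets 57 controls were left out. Of the rest 12783 had 1 symbol, 312 had several and 2771 had none in the platform table. All 106 member symbols matched the RefSeq gene table by Entrez ID, and none had changed.

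Signals were taken as log2(signal + 16), so folds of low genes are understated, and limma 3.58.1 in R 4.3.3 (lmFit, contrasts.fit, eBayes with an intensity trend) was fitted to all 9 arrays, with 6 residual degrees of freedom and 12.7 after moderation. Adjusted p is Benjamini-Hochberg over 10106 probe sets. No fold is given where a medium's mean lay below the mean 40th percentile of its arrays, which was 691.1 in HRG, 632.2 in PTN and 750 in BSN. The fit was tested on simulated data.

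Given with every array's value were all probe sets of Mmp2, Timp3, Serpine2 and Serpinb1a and, per comparison, up to 8 rises and 8 falls. The members and lists were chosen with earlier results of these data known. The design text calls the samples biological replicates. Deviations from group means correlated between arrays of one replicate number at 0.118 to 0.332 for HRG and PTN in all 3 pairs, so the paired fit is given where it changes a call there. The labels do not say what the numbers share. Figures used matplotlib 3.10.9. Promoter sequences are from RefSeq (GRCr8).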

Additional observations from a re-analysis of the deposited data

How the results depend on the processing

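Each comparison was refitted under 18 alternatives, 9 settings and 9 fits that left out 1 array each. Of the member calls, 9 of 13 in HRG against BSN, 14 of 21 in HRG against PTN and 9 of 14 in PTN against BSN passed under every alternative that tested them, and no member call changed its direction. The number of member calls was 9 to 15 in HRG against BSN, 15 to 22 in HRG against PTN and 10 to 21 in PTN against BSN with 1 array left out. In PTN against BSN the highest number, 21, came without PTN replicate 1. Some losses are not listed with the genes above. With no filter Cst3, Ctss, Serpine2, Anxa2 and Lrp1 also lost their calls in HRG against BSN. In HRG against PTN Adam10, Cstb, Mmp17, Plat, Timp1 and Lcn2 did so. With only the compared arrays Ctsb, Mmp17, Plat, Timp1 and Lcn2 lost theirs in HRG against PTN. Both Mmp24 falls in PTN against BSN were lost in each of these settings. Without an intensity trend Anxa2 was lost in HRG against BSN and Lcn2 in HRG against PTN. With the filter at the 60th percentile 8 member probe sets were called in PTN against BSN against 14, of the 30 members that this filter tests. With replicate number as a block, 20 were called in HRG against PTN, 13 in HRG against BSN and 15 in PTN against BSN, and the block lost no other member call than that of Mmp17. For HRG against BSN and PTN against BSN the replicate numbers were not taken to pair the arrays, with correlations from -0.097 to 0.13. Dim probe sets such as Ctss, Adam10 and Serpine2 in HRG are near the level where the filter works, which limits how far their size can be read.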
